A study of Ovis aries with 18 samples.

Results

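MicroRNAs (miRNAs) in the blood plasma of ewes fed a high-fat diet for 14 weeks were compared with those of ewes on a standard diet at the same week. The 6 libraries concerned, 3 titled OBESE and 3 titled CTRL at week 14, were taken by their sample titles from the 18 libraries of the series, which also hold both diets at weeks 7 and 10. All animals were female sheep of the Polish Longwool breed. The ewes of both diets were ovariectomized and carried estradiol implants, so the controls share that surgery and hormone treatment. OBESE is the group on the high-fat diet and CTRL the group on the control diet, with 6 ewes assigned at random to each. Age and body weight are not reported here, so OBESE is used as the name of a diet group. It is not stated if a library holds plasma of 1 ewe or of several, and the p-values measure the spread between libraries, which may be technical.

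miRNAs are short RNAs that an Argonaute protein holds and guides to matching messenger RNAs, which are then translated less and decay faster. Cells release some of them into blood, in vesicles, with lipoproteins and bound to protein, and red blood cells and platelets are large sources of the miRNAs of plasma. In plasma, a change in the number of releasing cells and a change in the RNA released per cell cannot be told apart.

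The 6 libraries held between 488427 and 977732 counts. Mean totals were 856674 ± 113991 in CTRL and 653823 ± 182285 in OBESE (SD, n = 3 each), and the groups overlapped (two-sided exact permutation p = 0.3, where 3 against 3 can give no p below 0.1). CTRL replicate 3 stood apart from the other 5 libraries. Its scaling factor (TMM, a trimmed mean of ratios that places the bulk of miRNAs at the same level) was 0.718, against 0.988 to 1.14 in the others. miR-16b made up 55.1% of its counts, against 44.0% to 50.02%. Of 6 measures of depth and composition, 0 passed the exact test between the diets, and every adjusted p was 1. The mean share of miR-16b was 1.88 percentage points lower in OBESE, and 1.21 points higher without CTRL replicate 3.

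No miRNA passed the test at week 14. edgeR's quasi-likelihood test, fitted to all 18 libraries, called 0 of 168 tested miRNAs (0%) at a Benjamini-Hochberg adjusted p of 0.05, and the smallest adjusted p was 0.319. At an unadjusted p under 0.05 there were 13 (7.74%), 10 of them (5.95%) with the higher level in OBESE and 3 (1.79%) with the lower. DESeq2, run without the filter on low counts, made 0 calls and had 15 of 364 under 0.05. limma-voom made 0 calls and had 13 of 168. Of the 168, 83 (49.4%) had a log2 fold change (log2FC, OBESE minus CTRL) above 0, and the median was -0.01. With TMM scaling the OBESE and CTRL libraries did not overlap for 16 (9.52%), with OBESE higher for 12 (7.14%) and lower for 4 (2.38%).

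Which miRNAs were under 0.05, and so the split by direction, depended on the setting. Of the 15 miRNAs with the smallest p, 0 changed sign in the alternatives that tested them. They were picked by p from these same libraries, so a stable sign was largely fixed in advance. The split was 12 higher and 3 lower in the DESeq2 fit and 10 and 3 in limma-voom. In edgeR it was 10 and 3 with TMM, and 13 and 3 with library totals alone. It was 8 and 3 in edgeR with size factors of DESeq2's kind (RLE), and 7 and 5 with miR-16b kept out of the scaling. With near-identical features counted once it was 4 and 6. It was 4 and 3 without CTRL replicate 1, 6 and 8 without CTRL replicate 3, and 2 and 6 without OBESE replicate 3. Library totals alone moved the median over all miRNAs to 0.15.

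**Figure D1:**
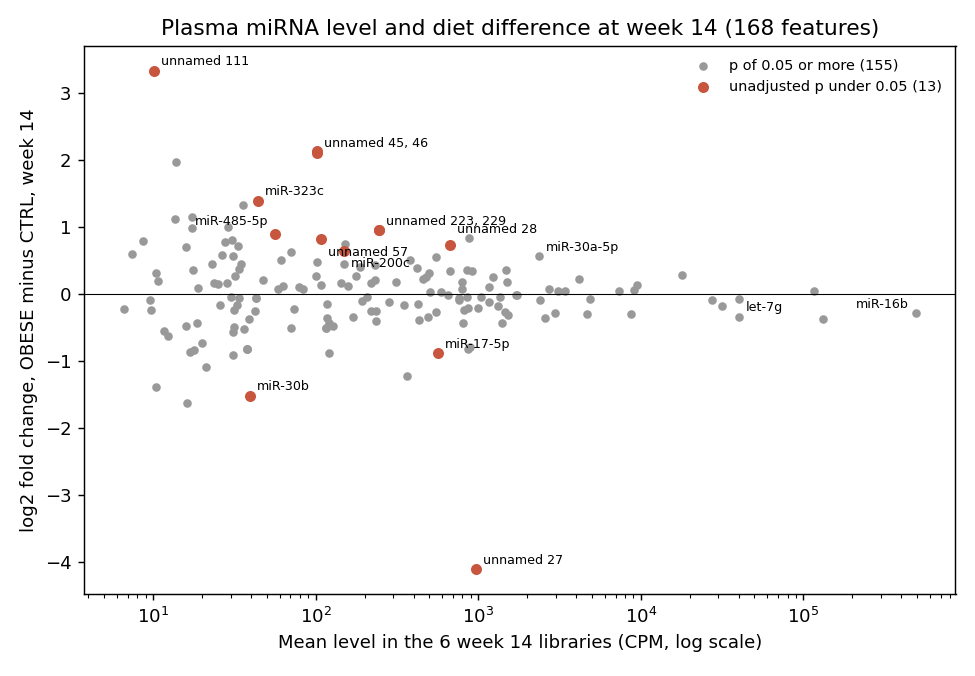
Each of the 168 tested miRNAs is placed by its mean level in the 6 week 14 libraries (CPM, counts scaled to a common total, log axis) and its log2 fold change, OBESE minus CTRL. The 13 with an unadjusted edgeR p under 0.05 are in red, and none of them has a mean level above 1000 CPM.

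The size of difference these libraries could resolve depended on abundance. Levels are given as CPM, a library's counts scaled to a common total with its TMM factor. For the 35 miRNAs with a mean above 1000 CPM, the 95% interval reached a median of 0.49 (log2) beyond the estimate, which is 1.40-fold, and for 30 of the 35 the whole interval lay inside a 2-fold difference. For the 66 between 100 and 1000 CPM the reach was 0.70, with 33 inside a 2-fold difference. For the 67 below 100 CPM it was 1.31, and 2 were inside.

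miR-17-5p, of a polycistronic cluster known for promoting cell proliferation, had the smallest p. It lay at 1093, 463 and 632 CPM in CTRL replicates 1 to 3 and at 422, 373 and 389.6 CPM in the OBESE libraries. With TMM all OBESE libraries were below all CTRL libraries and close to each other, and CTRL replicate 1 was far above the rest. By library totals alone the groups overlapped, with 444 of 977732 counts in CTRL replicate 3 and 408 of 849264 in OBESE replicate 1. The log2FC was -0.88 (SE 0.261) with an edgeR adjusted p of 0.319. Without CTRL replicate 1 it was -0.49. Without CTRL replicate 2, the lowest control, it was -1.15 with an edgeR adjusted p of 0.0308, the only call in the 6 fits that left out a library (range over all alternatives 0.0308 to 0.768).

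The other tested miRNAs of this cluster and its paralogs were miR-106b and miR-25, which are neighbours in the genome. miR-106b lay at 259, 130.4 and 185 CPM in CTRL and 156, 208 and 86.4 CPM in OBESE, for a log2FC of -0.35 (SE 0.331). miR-25 lay at 1042, 1240.1 and 1899 CPM in CTRL and 1296, 1226 and 1196 CPM in OBESE, for -0.17 (SE 0.303). The groups overlapped for both, and for miR-25 the log2FC was 0.06 with library totals alone. The median of the 3 was -0.35. miR-19b, the neighbour of miR-17-5p, had at most 12 counts in a library and was not tested.

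The miR-30 family is studied in fat cell differentiation and in epithelia. Its members other than miR-30a-3p have very similar sequences, so the division of reads between those members is uncertain. miR-30b had the second smallest p, at 83.8, 25.2 and 67.0 CPM in CTRL and 29.0, 19.5 and 11.5 CPM in OBESE, from 6 to 70 counts a library. CTRL replicate 2 lay among the OBESE values. The log2FC was -1.51 (SE 0.503) with an edgeR adjusted p of 0.319. miR-30a-5p had the opposite sign, at 1321, 2192 and 2191 CPM in CTRL and 2729, 2938 and 2802 CPM in OBESE. These did not overlap, and the OBESE libraries lay in a narrow range. The log2FC was 0.57 (SE 0.302) with an edgeR adjusted p of 0.672.

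miR-30d, the most abundant member and the genomic neighbour of miR-30b, ranged from 7286 to 10225 CPM in CTRL and from 8344 to 11081 CPM in OBESE, with a log2FC of 0.06 (SE 0.266), or -0.01 with miR-16b kept out of the scaling. miR-30a-3p, cut from the same hairpin as miR-30a-5p, had -0.16 (SE 0.239), at 329 to 441 CPM in CTRL and 269 to 374 CPM in OBESE. miR-30c had -0.49 (SE 0.46), at 32.8 to 40.04 CPM in CTRL and 18.6 to 34.5 CPM in OBESE. Of the 5 listed, miR-30a-3p included, 2 were positive and 3 negative, or 1 and 4 with miR-16b kept out of the scaling. Their median of -0.16 is the value of miR-30a-3p.

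**Figure D2:**
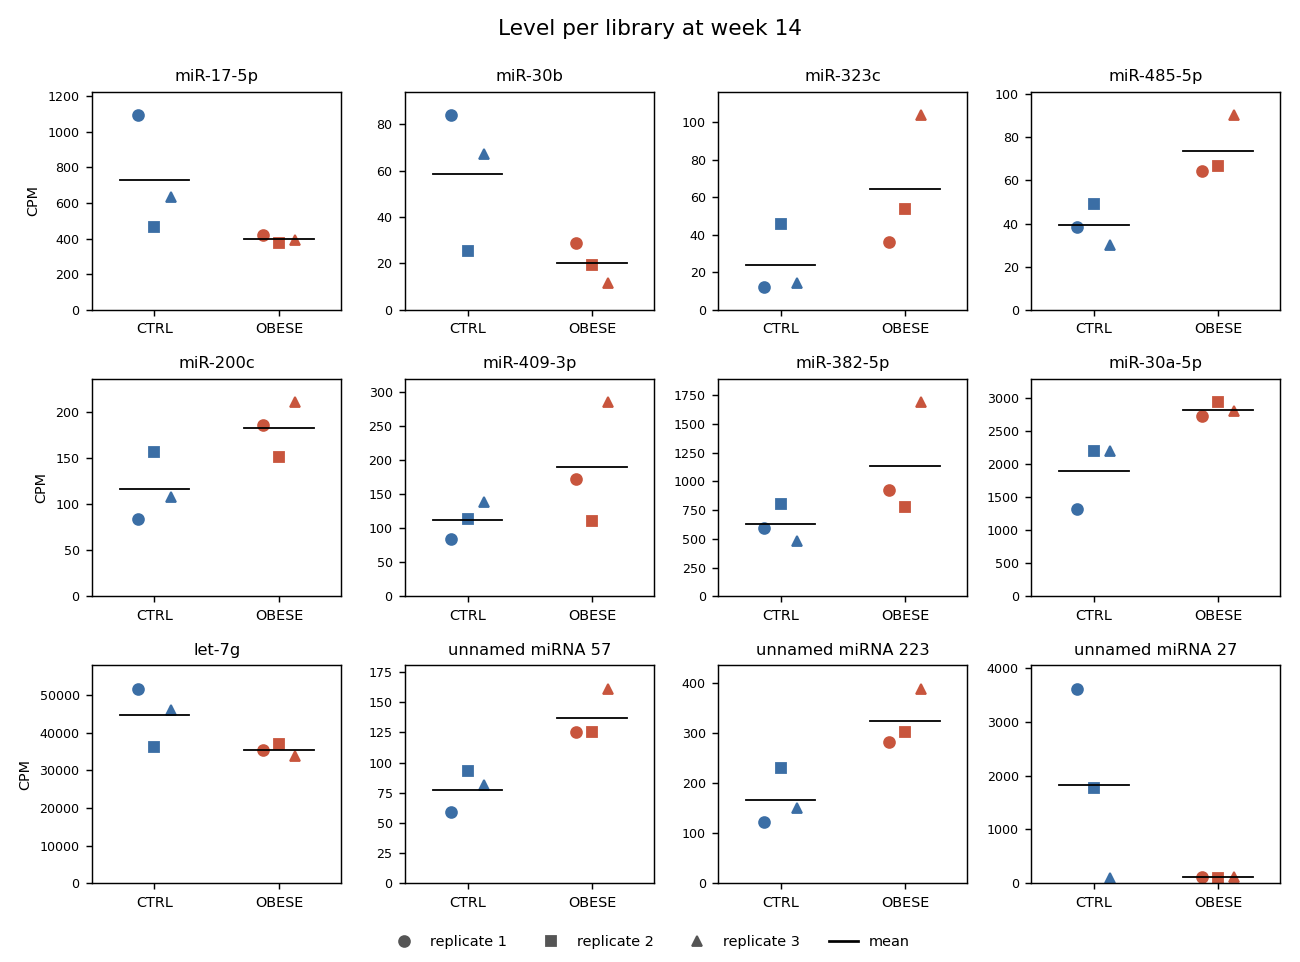
The level of 12 miRNAs in each week 14 library (CPM, axis from 0), with a marker shape for each replicate number and a line at the group mean. With this TMM scaling miR-17-5p, miR-485-5p, miR-30a-5p and unnamed miRNAs 57 and 223 have no overlap between the diets. OBESE replicate 3 is the highest library for miR-323c, miR-409-3p and miR-382-5p.

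The DLK1-DIO3 miRNAs come from a large imprinted cluster, expressed from the maternal chromosome beside the noncoding RNA MEG3. In sheep the same locus carries the callipyge muscle trait. The cluster supplied 59 of the 107 named features, of which 14 were tested. The other 45 were too rare, and 9 had no count in any of the 6 libraries. Of the 14 tested, 11 had a positive log2FC with each of 4 scalings and 3 a negative one, where 49.4% of all 168 were positive. Their median was 0.73, beside -0.01 over all 168. Unadjusted, 2 of the 14 had a p under 0.05, miR-323c and miR-485-5p, beside 13 of all 168 (7.74%), and 0 passed after adjustment.

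miR-323c lay at 12.0, 45.8 and 14.2 CPM in CTRL and at 36.2, 53.6 and 104 CPM in OBESE. The groups overlapped through CTRL replicate 2, and the log2FC was 1.40 (SE 0.602) with an edgeR adjusted p of 0.577. miR-485-5p lay at 38.3, 49.2 and 29.9 CPM in CTRL and at 64.1, 66.6 and 90.2 CPM in OBESE. These did not overlap, and the log2FC was 0.90 (SE 0.415) with the same adjusted p. miR-409-3p lay at 83.8, 113 and 139.6 CPM in CTRL and at 173, 110.4 and 286 CPM in OBESE, for 0.75 (SE 0.36). miR-323a-3p, at 2.40, 6.86 and 7.12 CPM against 14.5, 9.74 and 42.2 CPM, did not overlap but rested on 2 to 22 counts a library, for 1.97 (SE 0.955).

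miR-382-5p was the most abundant member, at 598, 807 and 479 CPM in CTRL and 924, 774 and 1689 CPM in OBESE, for a log2FC of 0.85 (SE 0.417), or 0.34 without OBESE replicate 3. miR-432 and miR-127 lie antisense to the imprinted gene PEG11, also called RTL1. miR-432 lay at 289.8, 446 and 201 CPM in CTRL and at 298, 305 and 729 CPM in OBESE, for 0.50 (SE 0.589). miR-127 lay at 63.5, 126 and 65.5 CPM and at 104, 66.6 and 188 CPM, for 0.49 (SE 0.44). In both, OBESE replicate 3 was the highest library and the other OBESE libraries lay within the range of the controls.

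The remaining positive members were miR-493-3p (0.81), miR-376c-3p (0.71), miR-411a-5p (0.17) and miR-3957-5p (0.78), the last with 62.3 CPM in CTRL replicate 1 and no count in the other controls. The negative members were miR-376b-3p (-0.22), miR-369-5p (-0.48) and miR-494-3p (-0.54), with 2 to 7, 2 to 32 and 2 to 16 counts a library.

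OBESE replicate 3 was the highest of the 6 libraries for 9 of the 14 members, beside 35 of all 168. Over the 59 features the summed level was 1259, 1798 and 1071 CPM in CTRL replicates 1 to 3 and 1842, 1545 and 3432 CPM in OBESE replicates 1 to 3. The 45 untested features alone summed to 138 CPM in OBESE replicate 3 and to between 39.5 and 68.6 CPM in the other 5. OBESE replicate 3 was also the highest of its group at weeks 7 and 10, with 3092 and 2481 CPM, while the other 4 OBESE libraries of those weeks lay between 1258 and 1371 CPM. Among the controls, replicate 1 at week 7 reached 2939 CPM. Without OBESE replicate 3 at week 14, 8 of the 14 were positive with a median of 0.29, and miR-323c had 0.82 and miR-409-3p 0.23. Without CTRL replicate 3 the median was 0.38 with 11 positive.

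**Figure D3:**
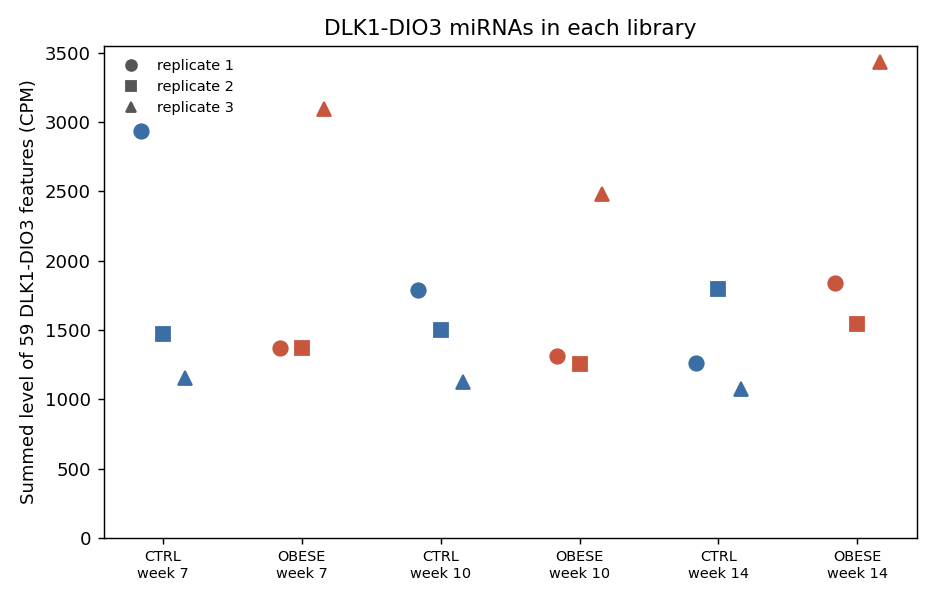
Summed level of the 59 DLK1-DIO3 features (CPM, axis from 0) in each of the 18 libraries by diet and week, with a marker shape for each replicate number. OBESE replicate 3 lies between 2481 and 3432 CPM at the 3 weeks, and the other OBESE libraries between 1258 and 1842 CPM.

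The let-7 family is known for restraining growth pathways and insulin signalling. let-7g lay at 51759, 36198 and 46170.1 CPM in CTRL and at 35397, 37016 and 33735 CPM in OBESE, with a log2FC of -0.34 (SE 0.182). CTRL replicate 2 lay inside the OBESE range. let-7c did not overlap with TMM, with 4875, 5686 and 4875 CPM against 3856, 4292 and 4376 CPM, for -0.30 (SE 0.226). By library totals alone let-7c overlapped, with 3422 of 977732 counts in CTRL replicate 3 and 3728 of 849264 in OBESE replicate 1. Its genomic neighbour miR-99a had 0.16 (SE 0.329). let-7a had -0.08 (SE 0.177), let-7b -0.07 (SE 0.232), let-7d -0.08 (SE 0.18), let-7i -0.07 (SE 0.165) and let-7f 0.04 (SE 0.164), all with overlap. Of the 7 members 6 were negative (median -0.08), but 5 were positive with library totals alone, and 0 had an unadjusted p under 0.05.

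Of the miRNAs studied in adipose tissue and insulin action 8 were tested, 6 positive and 2 negative, with a median of 0.17 (7 positive with library totals alone, 5 with miR-16b kept out of the scaling). Over all 168, 49.4% were positive with TMM. Without OBESE replicate 1 the median of the 8 was -0.02, with 3 positive. miR-103 and miR-107, a pair known to lower insulin sensitivity through caveolin-1, had log2FC values of 0.11 (SE 0.312) and 0.36 (SE 0.37). miR-103 ranged from 766 to 1368 CPM in CTRL and from 958 to 1371 CPM in OBESE, and miR-107 from 484 to 1051 CPM and from 750.5 to 1104 CPM. Without CTRL replicate 1 miR-107 had 0.10 and miR-103 -0.12.

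miR-26a, which has been linked to insulin sensitivity in liver, lay at 1218, 1472 and 1205 CPM in CTRL and 1433, 2099 and 1476 CPM in OBESE, for 0.36 (SE 0.228), or 0.06 without OBESE replicate 2, the highest library. Its relative miR-26b lay at 3938, 2377 and 2397 CPM and 2523, 2005 and 2301 CPM, for -0.35 (SE 0.275), with CTRL replicate 1 far above the rest and a log2FC of -0.09 without it. miR-29a, known for its collagen targets, lay at 3221, 4688 and 3521 CPM and 5825, 4606 and 2985 CPM, for 0.23 (SE 0.231). Among the 8, miR-30a-5p was the one without overlap, beside 16 of all 168 (9.52%).

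**Figure D4:**
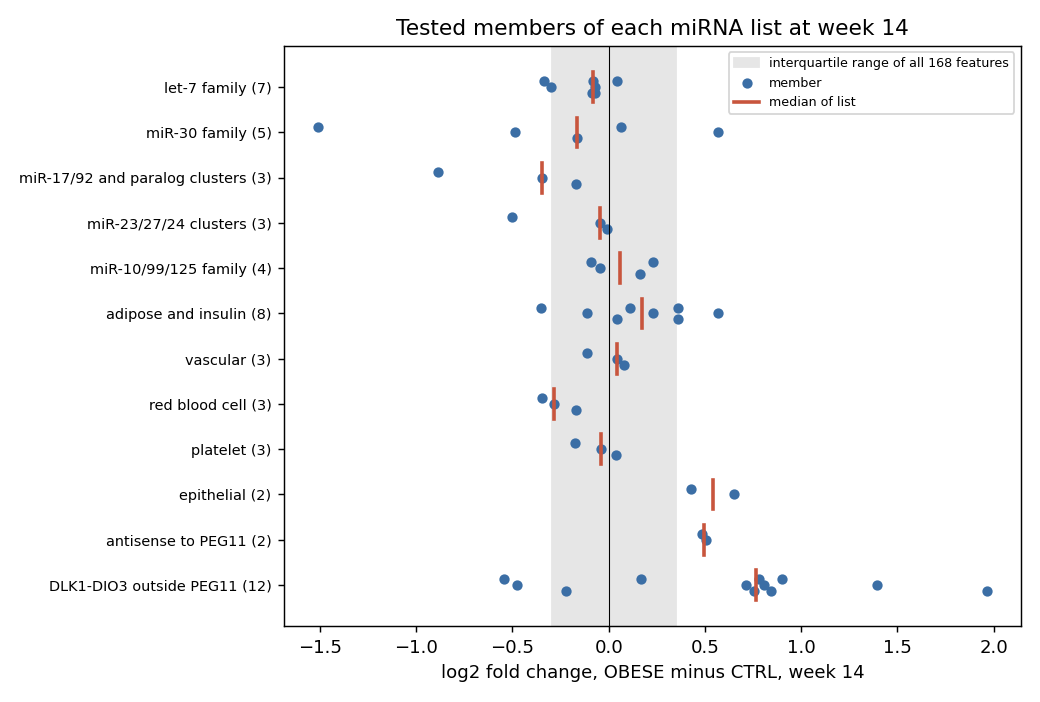
log2 fold changes (OBESE minus CTRL) of the tested members of 12 miRNA lists, with the number tested in parentheses, the list median in red and the interquartile range of all 168 miRNAs in grey. The DLK1-DIO3 members outside PEG11 have a median of 0.77 and the miR-17/92 members one of -0.35. The vascular list includes miR-194, which is found in liver and gut.

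miR-143 of smooth muscle and miR-221 of endothelium had 0.04 (SE 0.287) and -0.11 (SE 0.253), and each changes sign with the scaling, the first with miR-16b kept out and the second with library totals alone. miR-23b had -0.50 (SE 0.382), at 76.9 to 91.0 CPM in CTRL and 38.4 to 89.0 CPM in OBESE. The neighbours miR-23a and miR-27a had -0.01 (SE 0.254) and -0.05 (SE 0.21), and both were positive with library totals alone. Of the miRNAs encoded in or related to those of the HOX clusters, which pattern the body axis, miR-10b had 0.23 (SE 0.254), miR-10a -0.09 (SE 0.247) and miR-125b -0.05 (SE 0.362), the last pair positive with library totals alone. None of these had an unadjusted p under 0.05. Of the named miRNAs in no list, miR-22-3p had 0.35 (SE 0.283), at 509 to 715 CPM in CTRL and 534 to 931 CPM in OBESE, and miR-148a had -0.16 (SE 0.773).

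Markers of cells that can feed plasma are given as measured. Several had no feature under their name, among them the platelet miRNAs miR-223 and miR-126 and the liver miRNAs miR-122 and miR-192. Of 7 listed red blood cell miRNAs, miR-451, miR-486, miR-144 and miR-92a had no feature under their name. The other 3, miR-16b, miR-25 and miR-106b, were analysed. They summed to 397363, 459386 and 769278 CPM in CTRL and to 392953, 472189 and 470182 CPM in OBESE, nearly all of it miR-16b, and CTRL replicate 3 was far above the other 5. All 3 were negative with a median of -0.28, or -0.02 without CTRL replicate 3, and miR-25 was positive with library totals alone. The platelet miRNAs miR-191, miR-21 and miR-199a-3p had log2FC values of -0.18 (SE 0.224), -0.04 (SE 0.254) and 0.04 (SE 0.251), of which 2 were positive with library totals alone and 0 with miR-16b kept out of the scaling. They summed to 31455 to 39733 CPM in CTRL and 24785 to 38833 CPM in OBESE. The lymphocyte miRNA miR-150 ranged from 2529 to 4026 CPM in CTRL and from 2815 to 3445 CPM in OBESE. miR-133, from muscle, lay at 43.1, 20.6 and 4.27 CPM against 8.28, 22.7 and 7.68 CPM, and miR-194, found in liver and gut, had 0.08 (SE 0.455). The part of these cells in the differences above was not tested.

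miR-200c, of the family that keeps the epithelial state by repressing ZEB transcription factors, was among the 13 with an unadjusted p under 0.05. It lay at 83.8, 157 and 108 CPM in CTRL and at 186, 151 and 211 CPM in OBESE, overlapping through CTRL replicate 2. Its log2FC was 0.65 (SE 0.307) with an edgeR adjusted p of 0.577. Its relative miR-200a lay at 250.3, 188 and 158 CPM and at 398, 214 and 188 CPM, highest in OBESE replicate 1, for 0.43 (SE 0.329). miR-200b, the neighbour of miR-200a, had at most 13 counts in a library and was not tested. The 3 together summed to 276 to 351 CPM in CTRL and to 365 to 594 CPM in OBESE, which did not overlap with TMM. By library totals alone the sums overlapped, with 292 of 751394 counts in CTRL replicate 1 and 225 of 623778 in OBESE replicate 2. Both tested members were positive with each of 4 scalings. Without OBESE replicate 1, 1 was positive and 1 negative, with a median of 0.31. Unadjusted, miR-200c had an edgeR p of 0.0434 with library totals alone, 0.0599 with RLE scaling and 0.0743 with miR-16b kept out of the scaling.

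The 10 most abundant miRNAs held 88.0% to 93.5% of the counts in CTRL and 88.8% to 90.6% in OBESE. miR-16b had 48.9% ± 5.65 in CTRL and 47.0% ± 2.77 in OBESE (SD, n = 3 each). Its level was 396062, 458015 and 767194 CPM in CTRL and 391501, 470756 and 468900.0 CPM in OBESE, for a log2FC of -0.28 (SE 0.258), and -0.02 without CTRL replicate 3. Unnamed miRNA 1 lay at 73333, 136969 and 235318 CPM in CTRL and at 115034, 131483 and 97674 CPM in OBESE, for -0.37 (SE 0.411), more widely spread in CTRL. Unnamed miRNAs 2, 3 and 4 had 0.05 (SE 0.164), 0.29 (SE 0.218) and 0.13 (SE 0.248). miR-191, let-7a, let-7b, let-7g and miR-30d complete the 10.

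Unnamed miRNAs, listed by a running number, made up 8 of the 13 with an unadjusted p under 0.05. They were also 114 of the 168 tested, of which 7.74% were under 0.05, and the 8 include the near-identical pairs 223 and 229 and 45 and 46. Unnamed miRNA 57 lay at 58.7, 92.7 and 81.2 CPM in CTRL and at 125.17 CPM in OBESE replicate 1, 161 CPM in replicate 3 and just under the first of these in replicate 2, for a log2FC of 0.82 (SE 0.289). Unnamed miRNAs 223 and 229 had equal counts in all 6 libraries and stand for 1 measurement, at 122, 229 and 149.6 CPM against 281, 302 and 388 CPM, for 0.95 (SE 0.336). Neither measurement overlapped between the diets, and each had an edgeR adjusted p of 0.319. Unnamed miRNA 28 lay at 296, 788 and 424 CPM against 864, 888 and 749 CPM, for 0.73 (SE 0.335), overlapping through CTRL replicate 2.

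Unnamed miRNA 27 lay at 3612, 1775 and 89.7 CPM in CTRL and at 115, 89.3 and 113 CPM in OBESE, so that its log2FC of -4.11 (SE 1.497) sets 2 control libraries against the other 4 libraries. Unnamed miRNAs 45 and 46, near-identical, had 2.11 and 2.14, with 372 CPM in OBESE replicate 3 and at most 86.0 CPM elsewhere, and 0.64 and 0.67 without that library. Unnamed miRNA 111 had 2, 0 and 2 counts in CTRL and 13, 20 and 5 in OBESE. Its controls were all below the level of 3 counts, which is 3.43 to 4.27 CPM there, and no fold is given.

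Whether the diet difference at week 14 departed from that of weeks 7 and 10 was tested as a contrast in the same model. That model treats the 18 libraries as independent. edgeR called 0 of 168 (0%), 8 (4.76%) had an unadjusted p under 0.05, and the adjusted p was at least 0.418. DESeq2, without the filter on low counts, called 0 with 7 of 364 under 0.05, and limma-voom called 0 with 5 of 168. The diet difference itself had 9 miRNAs (5.36%) under 0.05 at week 7 and 11 (6.55%) at week 10, with 0 calls (0%) at either.

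miR-30b had the smallest p for this departure. Its log2FC was 0.70 at week 7, 0.44 at week 10 and -1.51 at week 14, a departure of -2.08 (SE 0.612) with an edgeR adjusted p of 0.418. Its mean level in OBESE was 43.4 ± 10.3, 52.3 ± 11.3 and 19.99 ± 8.74 CPM at the 3 weeks (SD, n = 3 each). In CTRL it was 26.9 ± 10.7, 38.1 ± 13.9 and 58.6 ± 30.2 CPM. miR-485-5p had -0.93, -0.28 and 0.90, a departure of 1.51 (SE 0.509) with an edgeR adjusted p of 0.482. Its mean level was 79.3, 53.5 and 39.1 CPM in CTRL and 41.7, 43.7 and 73.6 CPM in OBESE. For both, the sign at week 14 was opposite to that of the earlier weeks. Unnamed miRNA 233 had -1.13, -0.93 and 0.27, a departure with an edgeR adjusted p of 0.482. Unnamed miRNA 93 had 0.73, 0.01 and -1.38, from 2 to 19 counts a library at week 14.

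For miR-17-5p the log2FC was 0.04, -0.66 and -0.88 at the 3 weeks. Its OBESE libraries lay between 576 and 611 CPM at week 7 and between 339.6 and 400.3 CPM at week 10, while the control means were 576, 584 and 729.7 CPM at weeks 7, 10 and 14. The departure of week 14 was -0.58 (SE 0.318) and did not pass. miR-30a-5p was positive at each week, with 0.96, 0.47 and 0.57. Of the 13 miRNAs with an unadjusted p under 0.05 at week 14, 7 had the same sign at both earlier weeks. Another 3 had it at 1 of them and 3 at neither (miR-30b, miR-485-5p and unnamed miRNA 111). The 7 include the near-identical pairs 223 and 229 and 45 and 46. No such count was made over all 168, so the 7 are a description. In the DLK1-DIO3 group 7 of 14 were positive at week 7 and 10 of 14 at week 10, beside 48.8% of all 168 at either week, with medians of 0.04 and 0.17.

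**Figure D5:**
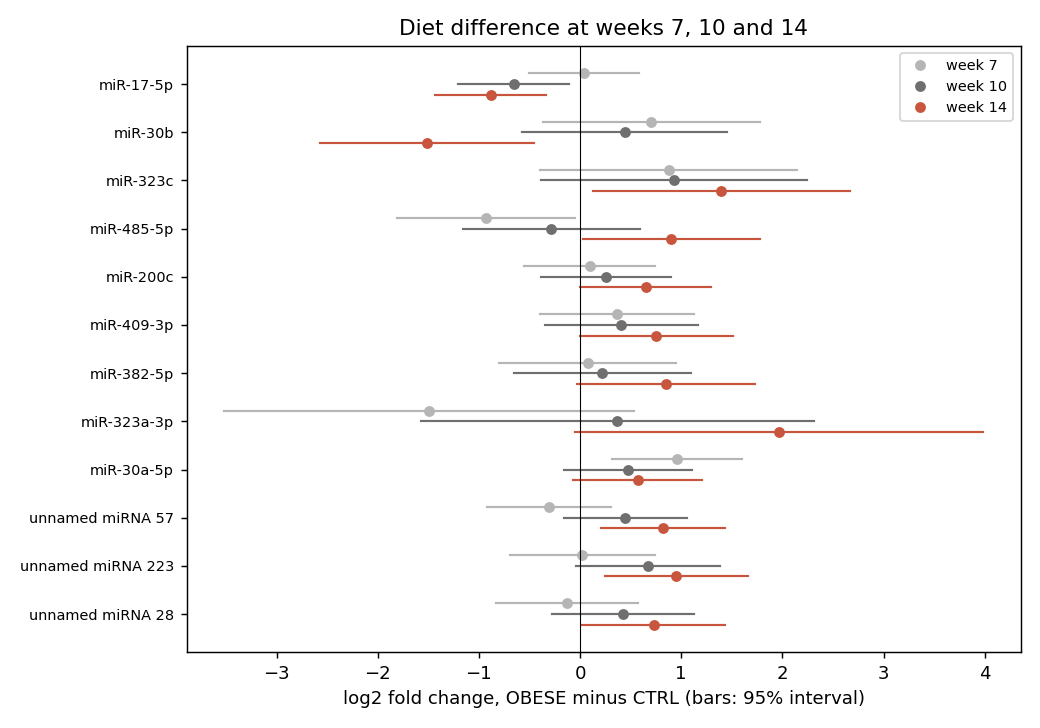
log2 fold change, OBESE minus CTRL, of 12 miRNAs at weeks 7, 10 and 14, with bars for the 95% interval from the edgeR fit of all 18 libraries. miR-30b and miR-485-5p lie on opposite sides of 0 at week 7 and week 14, and miR-30a-5p is above 0 at the 3 weeks.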

How the data were processed

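Plasma RNA was made into small RNA libraries with a QIAGEN kit whose molecular tags serve to remove PCR duplicates, per the labels' protocols. Tools listed by the submitters' processing notes are cutadapt 4.9, Bowtie 1.3.1 and DESeq2 1.42, with no role stated. Build, miRNA annotation and the handling of reads that match several miRNAs: not given in the sources used here. Raw counts were deposited by the authors for 364 features, 107 of them with a miRNA name. Whether a count is a molecule or a read is not stated.

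The counts of 18 libraries in 6 groups were fitted with edgeR 4.0.16 (R 4.3.3) after filterByExpr (minimum count 10, minimum total 15) and TMM, with 12 residual degrees of freedom. This kept 168 features, 54 of them named, and the rest held at most 0.0535% of a week 14 library. P-values are two-sided and adjusted by Benjamini-Hochberg over the 168, and SEs derive from the F statistic. DESeq2 1.42.0, limma 3.58.1, other scalings and filters, blocks and left-out libraries were alternatives. The edgeR step was also run on simulated libraries drawn independently, without the resemblance of same-numbered libraries. The outcome of that run is not reported here. Week 14 replicates differed by more than sampling noise. All 107 names matched RefSeq (ARS-UI_Ramb_v3.0), used for names and for neighbours within 10000 bases. Mature sequences were not used here, so seed groups were not formed.

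Named in the text are the 15 miRNAs with the smallest p (none passed), the 10 most abundant, the tested members of the lists, other tested named miRNAs, and the 5 with the smallest p for the departure from earlier weeks. The members and lists were chosen with earlier results of these data known.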

Additional observations from a re-analysis of the deposited data

How the results depend on the processing

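Over 17 alternative settings the week 14 comparison gave 0 calls at an adjusted p of 0.05 in all but 1, the fit without CTRL replicate 2 (1 call, range 0 to 1 over left-out libraries). Rare miRNAs are limited by depth: 3 counts correspond to 3.10 to 5.76 CPM at week 14. miRNAs at an unadjusted p under 0.05 numbered 8 in the fit of the week 14 libraries alone, and 7 to 18 with a library left out. Those for the departure from earlier weeks numbered 5 of 168 with library totals alone and with limma-voom. They numbered 14 of 364 without a filter on low counts and 3 of 106 with the stricter filter (mean of 50 counts). With a library left out they numbered 4 to 9. The replicate block gave 0 and 18 for week 14 and 0 and 6 for the departure, and changed no call. Whether its numbers pair CTRL and OBESE libraries is not stated in the labels. At week 14 the deviations of same-numbered CTRL and OBESE libraries from their group means had correlations of 0.13, 0.04 and 0.04. For 6 of 6 libraries the highest correlation across the diets was with their own number. These values do not decide if the numbers pair the samples.

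With library totals alone the list medians were 0.06 for let-7, -0.0254 for miR-30, 0.35 for adipose and insulin, 0.10 for platelet and -0.06 for red blood cell. They were 0.24 for the miR-10 family and its relatives and 0.19 for the vascular list, which includes miR-194. With miR-16b kept out of the scaling the let-7 median was -0.16. With a library left out the medians ranged from -0.22 to -0.0681 (let-7 family), -0.38 to -0.0314 (miR-30 family), -0.78 to -0.24 (miR-17/92 and paralog clusters), -0.0235 to 0.26 (adipose and insulin), -0.25 to -0.0374 (platelet), -0.47 to -0.02 (red blood cell), 0.29 to 0.85 (DLK1-DIO3), 0.34 to 0.87 (DLK1-DIO3 outside PEG11). Of the library measures, OBESE minus CTRL with a library left out ranged from -5 to 6 (features with at least 10 counts), -4.33 to 1.21 (miR-16b percent of counts), -3.56 to 1.3 (5 most abundant percent of counts), -0.0113 to 0.185 (TMM factor). The cause of these shifts was not tested.

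Of 67 miRNAs followed, 31 changed sign under at least 1 setting, all with a size of at most 0.78 in the report's fit. Of the 15 with the smallest p 0 did, but these were picked by p from the same libraries and were not all tested in every setting. With miR-16b kept out of the scaling the sign changed for unnamed miRNA 2 (-0.0214), miR-30d (-0.0123), let-7f (-0.0289), miR-143 (-0.0371), miR-150 (-0.0179), miR-194 (-0.0164), miR-199a-3p (-0.0299). In the fit of week 14 libraries alone the sign changed for unnamed miRNA 2 (-0.0577), miR-30d (-0.0483), let-7f (-0.0656), miR-143 (-0.0746), miR-150 (-0.0534), miR-194 (-0.0576), miR-199a-3p (-0.0689). With copies counted once the sign changed for unnamed miRNA 2 (-0.0344), miR-30d (-0.0283), let-7f (-0.0348), miR-143 (-0.0379), miR-150 (-0.0169), miR-194 (-0.00126), miR-199a-3p (-0.0269). With library totals alone the sign changed for let-7b (0.0878), let-7a (0.0608), let-7d (0.0398), let-7i (0.0915), miR-10a (0.0687), miR-125b (0.14), miR-21 (0.10), miR-221 (0.0254), miR-23a (0.13), miR-25 (0.0562), miR-27a (0.0818). Without the filter the sign changed for let-7f (-0.00542), miR-150 (-0.00512). With the stricter filter the sign changed for miR-125b (0.0101), miR-23a (0.0247). With limma-voom the sign changed for miR-125b (0.0163), miR-194 (-0.0472), miR-411a-5p (-0.32). With the replicate block the sign changed for miR-125b (0.00855), miR-143 (-0.000833), miR-194 (-0.0182). With a random replicate block by diet the sign changed for miR-125b (0.0144), miR-194 (-0.033), miR-411a-5p (-0.31). Without a library, the ranges were miR-16b -0.49 to -0.02, miR-26a 0.06 to 0.44, miR-26b -0.58 to -0.09, miR-107 0.10 to 0.61, miR-382-5p 0.34 to 1.05, miR-17-5p -1.15 to -0.49, unnamed miRNA 1 -0.72 to 0.0585, unnamed miRNA 2 -0.13 to 0.12, let-7b -0.26 to 0.0109, unnamed miRNA 4 -0.00227 to 0.14, miR-30d -0.20 to 0.15, let-7f -0.12 to 0.0638, miR-103 -0.12 to 0.21, miR-10b -0.0702 to 0.40, miR-125b -0.30 to 0.0795, miR-127 -0.0851 to 0.85, miR-143 -0.12 to 0.0843, miR-148a -0.48 to 0.30, miR-150 -0.13 to 0.25, miR-194 -0.59 to 0.30, miR-199a-3p -0.17 to 0.17, miR-200a -0.00373 to 0.61, miR-21 -0.29 to 0.17, miR-23a -0.20 to 0.0856, miR-25 -0.36 to 0.0363, miR-27a -0.24 to 0.11, miR-29a -0.031 to 0.35, miR-369-5p -1.02 to 0.39, miR-3957-5p -0.93 to 7.76, miR-411a-5p -1.17 to 0.51, miR-432 -0.14 to 0.84, miR-99a -0.10 to 0.36.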

Other observations

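The week 14 libraries resembled those of their diet that bear the same replicate number at the earlier weeks, and weeks 7 and 10 did so less regularly. Each week 14 library was compared, over the 168 miRNAs and as deviations from its group mean in log2 CPM, with the 3 libraries of its diet at week 10 and the 3 at week 7, and in 12 of 12 such comparisons the highest correlation was with its own number. Against week 10 these correlations were 0.36, 0.50 and 0.48 for CTRL replicates 1 to 3 and 0.69, 0.45 and 0.59 for OBESE replicates 1 to 3. Against week 7 they were 0.01, 0.32 and 0.22, and 0.32, 0.11 and 0.42. Between weeks 7 and 10, same-numbered libraries had 0.32, 0.29 and 0.41 in CTRL and 0.33, -0.02 and 0.39 in OBESE. There OBESE replicate 2 of week 7 correlated best with OBESE replicate 1 of week 10 (0.19). The labels do not say that a number stands for an ewe. The points share libraries and deviations within a group sum to 0, so the values are a description. A limma-voom fit that treated diet and number as a random block, with an estimated correlation of 0.22, called 0 of 168 at week 14 and had 13 at an unadjusted p under 0.05. For the departure from earlier weeks the same fit called 0 of 168 and had 7 under 0.05, with a smallest limma-voom adjusted p of 0.332.

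Within the week 14 libraries, CTRL replicate 1 was the highest or the lowest of the 6 for 77 of the 168 miRNAs and OBESE replicate 3 for 74, while the other 4 were so for 41 to 55. The median SD of log2 CPM over the 168 was 0.44 in CTRL and 0.41 in OBESE, and 82 miRNAs had the larger SD in CTRL and 86 in OBESE.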
